A study of Danio rerio with 15 samples.

Results

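The G-type cyclin genes *ccng1* and *ccng2* are described here across *esco2* morphant and control zebrafish embryos at 24 and 48 hours post-fertilization (hpf). Their members were the probe sets to which the platform annotation gives *ccng1* or *ccng2* as the only gene symbol. These were 3 of 15502 probe sets, 1 for *ccng1* and 2 for *ccng2*, and 2 of 8793 genes with a probe set of their own. The genes were chosen by their differences between morphants and controls on these arrays, so these differences are given as a description, without a test. RNA came from pools of 50 dechorionated whole embryos, with 1 pool on each of 15 Affymetrix arrays. Wild type embryos had been injected just after fertilization with the *esco2* MO, a morpholino that blocks translation of the mRNA of the cohesin acetyltransferase Esco2, or with buffer only. At 24 hpf there were 4 morphant and 4 control pools, and at 48 hpf there were 4 morphant and 3 control pools (numbered 1, 3 and 4). A morpholino lowers the protein and leaves the gene intact, and since controls received buffer, no array shows the response to an unrelated morpholino.

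Cyclin G1 and cyclin G2 are atypical cyclins. They share the cyclin box with the cyclins that drive the cell cycle, but are not known as partners that activate the mitotic kinases. In mammals, the cyclin G1 gene is a direct target of p53. Its protein binds protein phosphatase 2A (PP2A) and Mdm2, the ubiquitin ligase that keeps p53 low. The mammalian cyclin G2 gene is a target of FoxO transcription factors, is low in dividing cells, and its protein slows the cell cycle when it is abundant.

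Expression values are log2 values made by robust multi-array averaging (RMA), so a difference of 1 is a 2-fold change. The mean correlation of an array with the other arrays of its group lay between 0.989 and 0.998, except for control replicate 3 at 48 hpf, where it was 0.985. Of 25 marker genes of muscle, heart, blood, lens, neurons, skin, liver and macrophages, 20 were measured, and 18 of these lay above the median probe set level of 5.86. The probe set of *esco2* does not check the knockdown, because the morpholino acts on translation. The mean of *esco2* was 9.16 in controls and 8.85 in morphants at 24 hpf, and 8.16 and 8.55 at 48 hpf.

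The *ccng1* transcript was abundant in every pool and higher in *esco2* morphants at both time points, 2.60-fold at 24 hpf and 2.39-fold at 48 hpf. Control values at 24 hpf were 10.97, 10.76, 10.98 and 10.87 in replicates 1 to 4, against 12.25, 12.22, 12.41 and 12.20 in morphants. All 4 morphant pools lay above all 4 control pools, with a gap of 1.22 between the lowest morphant and the highest control. At 48 hpf control values were 11.24, 10.93 and 11.36 in replicates 1, 3 and 4, against 12.41, 12.46, 12.47 and 12.39 in morphant replicates 1 to 4. The groups did not overlap here either, and the gap was 1.02. Over all probe sets, every morphant lay above every control in 10.0% at 24 hpf and in 14.1% at 48 hpf.

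In terms of group means, *ccng1* stood in controls at 10.89 ± 0.11 (SD, n = 4) and in morphants at 12.27 ± 0.09 (SD, n = 4) at 24 hpf, a log2 difference of 1.38 (standard error 0.09, 95% confidence interval 1.19 to 1.56). At 48 hpf the means were 11.18 ± 0.23 (SD, n = 3) and 12.43 ± 0.04 (SD, n = 4), a log2 difference of 1.25 (standard error 0.10, 1.05 to 1.46). By limma, 0.381% of all probe sets at 24 hpf and 0.697% at 48 hpf rose at least 2-fold with an adjusted p up to 0.05. Of 15502 probe sets, 41 had a larger difference at 24 hpf and 49 at 48 hpf. The *ccng1* probe set is among the brightest, with 98.7% of probe sets below its mean of 11.73 over all arrays, while the highest value of any probe set was 13.99. In RNA of whole embryos, fewer cells of a type and less RNA per cell cannot be told apart.

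The *ccng2* transcript was lower in morphants at both time points on both of its probe sets. On the brighter one, control values at 24 hpf were 8.33, 8.27, 8.06 and 8.06, against 6.82, 7.00, 7.48 and 6.98 in morphants. Morphant replicate 3 was the highest of its group and still lay 0.58 below the lowest control. At 48 hpf control replicates 1, 3 and 4 had values of 8.38, 8.43 and 8.59, against 6.89, 7.23, 7.18 and 7.27 in morphants. Here the groups were 1.11 apart. On this probe set replicate 1 was the lowest morphant at both time points. On the other it was not at 48 hpf (6.56, against 6.50 in replicate 2). Every morphant lay below every control in 10.9% of all probe sets at 24 hpf and in 11.9% at 48 hpf.

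The control mean on this probe set was 8.18 ± 0.14 (SD, n = 4) at 24 hpf, and the morphant mean was 7.07 ± 0.28 (SD, n = 4). Morphants were thus 2.16-fold lower, with a log2 difference of -1.11 (standard error 0.12, 95% confidence interval -1.37 to -0.85). At 48 hpf the means were 8.47 ± 0.11 (SD, n = 3) and 7.14 ± 0.17 (SD, n = 4), a 2.50-fold lower level (log2 difference -1.32, standard error 0.13, -1.60 to -1.05). Only 13 probe sets had a more negative difference at 24 hpf, and 8 at 48 hpf. A fall of at least 2-fold was called by limma for 0.103% of all probe sets at 24 hpf and 0.213% at 48 hpf.

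The other *ccng2* probe set is dimmer and showed the same direction with a smaller difference. Its values at 24 hpf were 7.34, 7.53, 7.24 and 7.25 in controls and 6.31, 6.61, 6.71 and 6.35 in morphants. At 48 hpf they were 7.31, 7.60 and 7.59 in controls and 6.56, 6.50, 6.52 and 6.71 in morphants. Again no morphant reached a control, with gaps of 0.53 and 0.59. The log2 difference was -0.84 (standard error 0.10) at 24 hpf and -0.93 (standard error 0.11) at 48 hpf, or 1.80-fold and 1.90-fold lower, which is under the fold of 2 that the brighter probe set passed. Within an array, the brighter probe set exceeded the dimmer one at 24 hpf by 0.84 ± 0.10 (SD, n = 4) in controls, and by 0.57 ± 0.16 (SD, n = 4) in morphants. At 48 hpf this excess was 0.97 ± 0.12 (SD, n = 3) and 0.57 ± 0.17 (SD, n = 4). The mean of both probe sets gave log2 differences of -0.98 and -1.12.

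**Figure D1:**
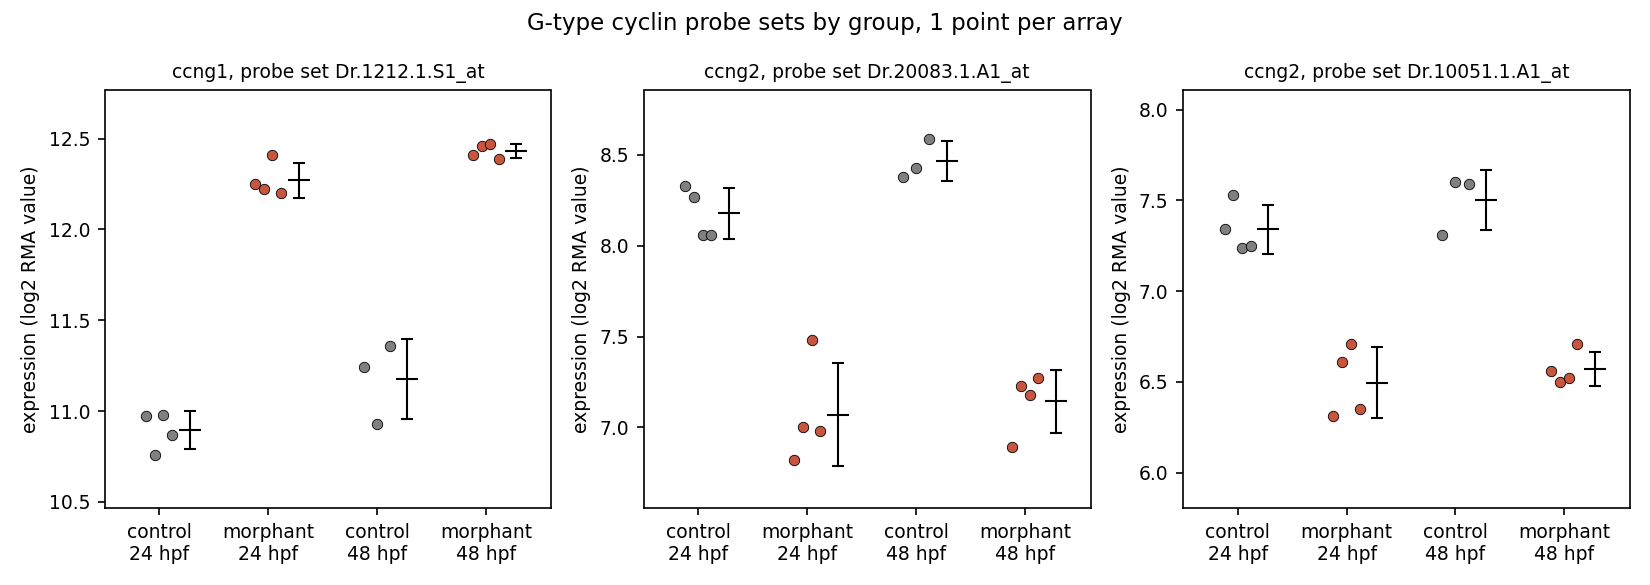
Expression of *ccng1* and of both *ccng2* probe sets in the 4 groups. The y axes are log2 RMA values, each spanning the same range; each point is 1 array (a pool of 50 embryos), grey for controls and red for *esco2* morphants, and the bars beside them are the mean and SD. Morphants lie above controls for *ccng1* (12.20 to 12.47 against 10.76 to 11.36) and below them for *ccng2*, with no overlap at 24 or 48 hpf.

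Differences at 24 and 48 hpf lay close to each other. The *ccng1* difference was 0.12 smaller at 48 than at 24 hpf on the log2 scale (standard error 0.13, 95% confidence interval of the change -0.39 to 0.15). For *ccng2* the change was -0.21 (standard error 0.18, -0.59 to 0.17) on the brighter probe set, which means a more negative difference at 48 hpf, and -0.08 (standard error 0.15, -0.39 to 0.23) on the other. All 3 intervals include 0, and they also leave room for changes of 0.39 to 0.59 in size.

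The difference between the control groups at 24 and 48 hpf was not itself used to choose the genes, but the control arrays entered the differences that were, so the p-values given here are not independent of that choice. The *ccng1* level was higher at 48 hpf by 0.28 on the log2 scale (standard error 0.10, 95% confidence interval 0.08 to 0.48, adjusted p = 0.021 from limma), a 1.22-fold change, although the lowest control at 48 hpf (10.93) lay within the range of controls at 24 hpf. A rise was called for 20.9% of all probe sets in this comparison. The call rested on few arrays. It was lost without control replicate 2 at 24 hpf (adjusted p = 0.067), without control replicate 1 at 48 hpf (adjusted p = 0.077), and without control replicate 4 at 48 hpf (log2 difference 0.19, adjusted p = 0.12). Without control replicate 3 at 48 hpf, which stands apart from its group, it was 0.41 (adjusted p = 6.1e-04). It was also lost when the controls were fitted alone (adjusted p = 0.078).

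For *ccng2* the difference between control groups was similar in size, 0.29 (standard error 0.13, 95% confidence interval 0.01 to 0.57), and did not pass after adjustment (adjusted p = 0.084 from limma, unadjusted p = 0.043). All 3 controls at 48 hpf lay above all 4 controls at 24 hpf, by 0.05, which held for 21.3% of all probe sets. The other *ccng2* probe set gave 0.16 (standard error 0.11, adjusted p = 0.25). In the morphants, *ccng1* differed by 0.16 between 48 and 24 hpf (standard error 0.09) and *ccng2* by 0.08 (standard error 0.12), with overlapping ranges, and these are given without a test.

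Put in order, *ccng1* was lowest in controls at 24 hpf, then came controls at 48 hpf, morphants at 24 hpf and morphants at 48 hpf. For *ccng2* the order ran from morphants at 24 hpf over morphants at 48 hpf and controls at 24 hpf to controls at 48 hpf. The control groups overlapped for *ccng1* and for the dimmer *ccng2* probe set, the morphant groups overlapped for all 3 probe sets, and no morphant group overlapped a control group.

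Other cyclin genes moved less. Of 34 listed, 17 were measured. At 24 hpf 5 of the 17 fell, none rose, and 12 did not pass (6 had an unadjusted p under 0.05, all lower), where 5.33% of all probe sets fell and 4.44% rose by limma at an adjusted p up to 0.05. At 48 hpf 3 rose and 4 fell, where 12.8% and 9.79% of all probe sets did, so the 3 that rose lay near the background. Median log2 differences over the list were -0.09 and -0.07, against 0.00 and 0.01 over all probe sets. Among the 19 cyclin genes including the G-type, *ccng1* had the highest and *ccng2* the lowest difference at 24 and at 48 hpf, which follows in part from how they were chosen.

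The next lowest in that order was *ccni*, which encodes cyclin I, another atypical cyclin. At 24 hpf it fell by 0.81 (adjusted p = 6.2e-07 from limma, standard error 0.07), and at 48 hpf by 0.82 (adjusted p = 1.5e-06, standard error 0.08). Cyclin F, encoded by *ccnf*, is a substrate receptor of an SCF ubiquitin ligase, and its gene fell by 0.46 at 24 hpf (adjusted p = 8.6e-04) and by 0.31 at 48 hpf (adjusted p = 0.014). The mitotic B-type cyclin genes *ccnb2* and *ccnb3* fell at 24 hpf by 0.39 and 0.36 (adjusted p = 0.008 and 0.0032), and *ccna2*, whose product acts in S phase and mitosis, fell by 0.32 (adjusted p = 0.047). At 48 hpf these had log2 differences of -0.09, -0.07 and -0.08 and did not pass. The probe sets of *ccnb3* and *ccnb1* can share sequence with other transcripts, so their values are less certain, and *ccnb1* did not pass at either time (-0.25 and 0.19).

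The G1 cyclin gene *ccnd1* was at 0.08 at 24 hpf (adjusted p = 0.66) and rose by 0.52 at 48 hpf (adjusted p = 8.3e-04). The gene *ccnt2b*, which encodes a cyclin T subunit of the transcription elongation factor P-TEFb, rose by 0.43 at 48 hpf (adjusted p = 0.0026). The gene *ccne1*, whose product drives entry into S phase, rose by 0.22 (adjusted p = 0.046). The Cdk-binding protein gene *cables2a*, counted here with the cyclin genes, fell by 0.48 at 48 hpf (adjusted p = 0.0032). Its group means of 4.25 to 4.83 lay below the median probe set level of 5.86. Without control replicate 3 at 48 hpf, 2 of the 17 cyclin genes fell at 48 hpf in place of 4. In most fits that left out 1 array, 2 rose at 48 hpf in place of 3, and 4 fell at 24 hpf in place of 5.

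**Figure D2:**
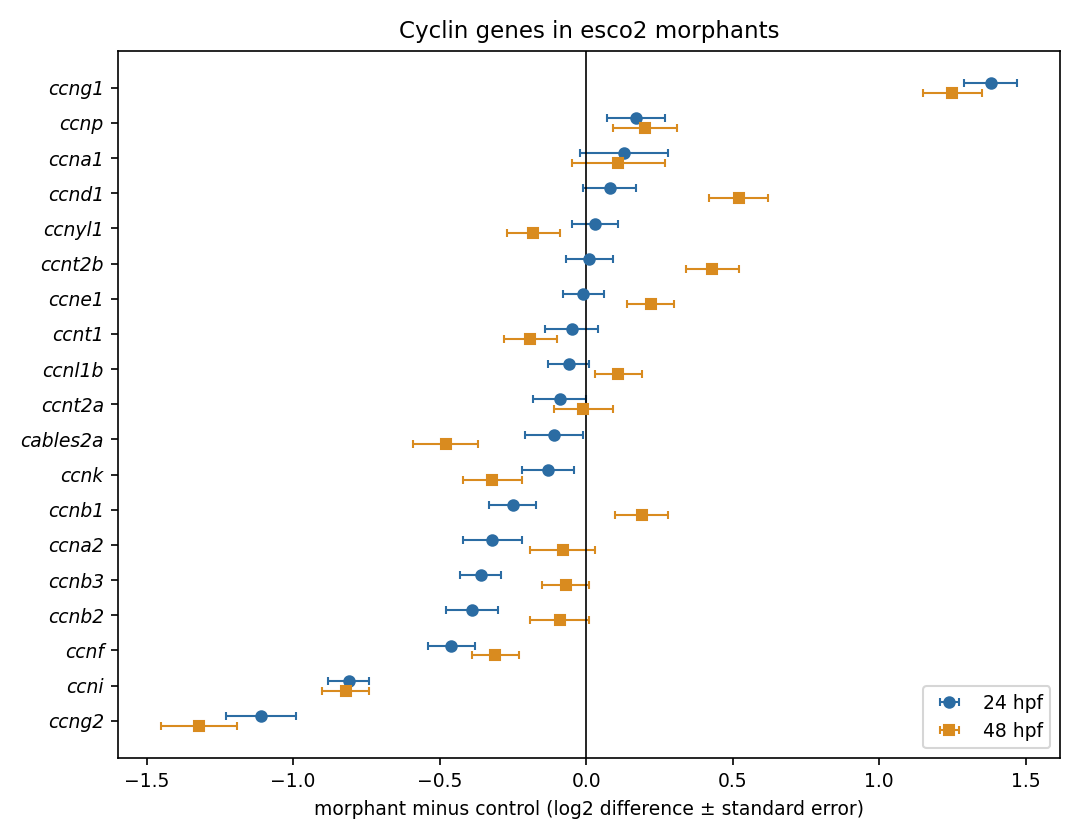
Differences between *esco2* morphants and controls for the 19 measured cyclin genes, with *cables2a* counted among them. The x axis is the log2 difference with its standard error from limma (blue circles 24 hpf, orange squares 48 hpf), and genes are ordered by the value at 24 hpf. The gene *ccng1* stands at 1.38 and 1.25 at the upper end and *ccng2* at -1.11 and -1.32 at the lower end, with *ccni* at -0.81 and -0.82 next to it.

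The *ccng1* difference was set beside those of other genes listed here as p53 target genes, a list that was drawn up with earlier results of these arrays known. Whether they depend on p53 in these embryos was not tested. Of 40 listed genes 28 were measured, while *cdkn1a* was not analysed here. Of the 28, 14 rose and 1 fell at 24 hpf (median log2 difference 0.34), and at 48 hpf 10 rose and 2 fell, with a median of 0.23. Of all probe sets, 4.44% rose and 5.33% fell at 24 hpf, and 12.8% and 9.79% did at 48 hpf. The 2 that fell at 48 hpf became 1 in 12 of the 15 fits that each left out 1 array, control replicate 3 at 48 hpf among them. The gene *ccng1* ranked 8 of 29 at 24 hpf and 6 of 29 at 48 hpf when it was placed among them. The largest rises at 24 hpf were those of *phlda3*, which encodes an inhibitor of Akt (3.16 at 24 hpf and 2.07 at 48 hpf), *casp8*, the initiator caspase gene (2.93 and 1.53), *gadd45aa*, a growth arrest and DNA damage gene (2.63 and 1.08), and *rps27l*, a ribosomal protein paralog (2.63 and 2.39). All 8 of these values had an adjusted p under 0.05 from limma. Control means at 24 and 48 hpf were 5.41 and 5.59 for *phlda3*, 4.59 and 4.73 for *casp8*, and 4.19 and 4.55 for *gadd45aa*. These lay below the median probe set level of 5.86, where a change can be understated, which limits the ranking. The gene *mdm2*, whose product binds cyclin G1 in mammals, rose by 2.50 at 24 hpf (adjusted p = 7.4e-13, standard error 0.08), and its difference at 48 hpf was 2.29 (adjusted p = 2.7e-11, standard error 0.09).

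All of the 14 p53 target genes that rose at 24 hpf had a smaller difference at 48 hpf, by 0.20 to 1.55 with a median of 0.53, and the change passed the test for 7 of them, where by limma 2.52% of all probe sets had a significantly lower and 3.75% a significantly higher effect at 48 hpf. They had been picked for their rise at 24 hpf, which favors this direction. The change of *ccng1* was -0.12 on this scale, and whether it differs from the changes of these genes was not tested.

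Transcription factors of the FoxO family and targets known in mammals were examined beside *ccng2*. Of 34 listed genes 19 were measured. At 24 hpf 4 rose and 2 fell, with a median log2 difference of 0.02, and at 48 hpf 4 rose and 2 fell, with a median of 0.00. The 2 that fell at 48 hpf lay near the 9.79% of all probe sets that did, and the other shares were 4.44% raised and 5.33% lowered at 24 hpf and 12.8% raised at 48 hpf. Of the 4 that rose, 3 at either time (*foxo3b*, *gadd45aa* and *sesn3*) are also on the p53 list. The paralogs of FoxO3 differed in direction on the brightest probe set of each, of 2 for *foxo3b* and 3 for *foxo3a*. Values of their other probe sets are not given here. The gene *foxo3b* rose by 2.10 at 24 hpf (adjusted p = 3.2e-08 from limma, standard error 0.15), and by 0.68 at 48 hpf (adjusted p = 0.0053, standard error 0.16). The size at 48 hpf depends on control replicate 3, which stands apart from its group. Controls there were at 8.48, 7.67 and 8.70 in replicates 1, 3 and 4, and morphants at 8.85 to 9.05. The gene *foxo3a* fell by 0.36 (adjusted p = 0.022) and 0.37 (adjusted p = 0.014). Its group means of 4.91 to 5.85 lay below the median probe set level of 5.86. The 2 that fell depended on single arrays. Without control replicate 2 or 4 or morphant replicate 2 at 24 hpf, 0 fell at 24 hpf, while without control replicate 3 at 48 hpf it was 4, and without control replicate 1 at 48 hpf 0 fell at 48 hpf. Among the targets, *sesn3*, which encodes a stress-induced sestrin, rose by 1.70 and 1.43, and *trim63b*, which encodes a muscle ubiquitin ligase, rose by 0.53 at 24 hpf (adjusted p = 3.1e-04). The insulin-like growth factor binding protein gene *igfbp1a* rose by 0.41 at 48 hpf (adjusted p = 0.029). Thus *ccng2* was lower in morphants while *foxo3b* was higher and *foxo3a* lower on the probe sets used.

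Other genes of cell cycle exit were counted beside *ccng2*. Of 15 measured of 26 listed, 3 rose and 2 fell at 24 hpf, and 0 rose and 2 fell at 48 hpf (0 rose in limma before adjustment too). Over all probe sets 4.44% rose and 5.33% fell at 24 hpf, and 12.8% and 9.79% did so at 48 hpf, so the 2 that fell at 48 hpf lay near the background. The gene *cdkn1bb*, which encodes a p27-type Cdk inhibitor, fell by 0.42 at 24 hpf (adjusted p = 0.0088) and by 0.65 at 48 hpf (adjusted p = 2.4e-04). In controls it rose from 24 to 48 hpf by 0.65 (adjusted p = 4.8e-05). The p57-type inhibitor gene *cdkn1ca* was at -0.08 at 24 hpf and fell by 0.81 at 48 hpf (adjusted p = 4.4e-06). The growth arrest gene *gas1b* fell by 0.61 at 24 hpf (adjusted p = 0.0058). The antiproliferative genes *tob1a* and *btg2* rose by 0.53 and 0.39 at 24 hpf (adjusted p = 0.017 and 0.018). The count of 3 was 1 without control replicate 3 or morphant replicate 3 at 24 hpf, and 0 without control replicate 4 at 24 hpf.

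Of 26 genes of dividing cells, 22 were measured. At 24 hpf 10 fell and 0 rose (15 and 0 in limma before adjustment), with a median log2 difference of -0.31, and at 48 hpf 5 fell and 3 rose, with a median of 0.02. The share of all probe sets that fell after adjustment was 5.33% at 24 hpf and 9.79% at 48 hpf. Shares before adjustment are not given here. The 3 that rose at 48 hpf lay near the 12.8% of all probe sets that did. The replicative helicase genes *mcm2*, *mcm3*, *mcm5* and *mcm4* had the largest falls at 24 hpf, by 0.63, 0.57, 0.54 and 0.53. They also fell at 48 hpf, by 0.56, 0.55, 0.52 and 0.41 (adjusted p = 7.8e-04, 7.7e-05, 6.4e-04 and 0.0063 from limma). The proliferation marker gene *mki67* rose by 0.62 at 48 hpf (adjusted p = 0.012). Its controls there were widely spread, at 7.62 to 8.72 (SD 0.58, n = 3), against 8.82 to 8.95 in morphants. In controls 19 of the 22 fell from 24 to 48 hpf, where 25.0% of all probe sets did, with a median of -0.63, over a period in which neither *ccng1* nor *ccng2* had a negative difference. Of 15 measured genes, which were *cdk5* and genes of PP2A subunits and PP2A regulators, 0 passed at 24 hpf (2 at an unadjusted p under 0.05 in limma, both lower). At 48 hpf 1 fell, where 9.79% of all probe sets did, so this count lay near the background. It was *ppp2r2bb*, a regulatory subunit gene expressed in neurons in mammals, which fell by 0.63 (adjusted p = 1.5e-04 from limma). Its group means of 3.81 to 4.91 lay below the median probe set level of 5.86. Without control replicate 3 at 48 hpf 3 fell. The cyclin G-associated kinase gene *gak* was not analysed here, and *cdk5* had log2 differences of -0.05 and 0.01. The group means of *cdk5*, 4.09 to 4.25, also lay below the median probe set level, where a change can be understated.

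Markers of cell types were compared beside the *ccng2* values. Of the 20 measured, 0 rose and 3 fell at 24 hpf, and 1 rose and 6 fell at 48 hpf, where 4.44% and 5.33% of all probe sets did at 24 hpf and 12.8% and 9.79% at 48 hpf. All 4 neuron markers were measured. The log2 of their summed level was 10.86 to 11.05 in controls and 10.64 to 10.72 in morphants at 24 hpf, and 11.72 to 12.15 and 11.36 to 11.68 at 48 hpf, with 1 lower at 24 hpf and 3 at 48 hpf by limma. The summed level of heart markers was higher in morphants without overlap. It was 9.64 to 9.76 in controls and 9.84 to 9.93 in morphants at 24 hpf. At 48 hpf it was 8.79 to 8.96 and 9.26 to 9.35. By limma, 0 of 2 measured heart markers rose at 24 hpf and 1 at 48 hpf. Summed lens markers were lower at 24 hpf (7.00 to 7.39 against 6.43 to 6.66), where 1 of 2 passed. At 48 hpf the macrophage marker (6.40 to 6.97 against 5.92 to 6.15) and the summed red blood cell markers (13.77 to 13.81 against 13.60 to 13.73) were lower. The macrophage marker and 1 of 3 red blood cell markers passed. Summed muscle markers lay just above controls (14.37 to 14.38 against 14.39 to 14.46), and 0 of 3 passed at 48 hpf. Over all probe sets, every morphant lay above every control in 10.0% at 24 hpf and 14.1% at 48 hpf. Every morphant lay below every control in 10.9% and 11.9%. Summed skin and liver markers overlapped at both times, but 1 of 2 liver markers fell at 48 hpf by limma. Of 3 measured muscle markers, 1 fell at 24 hpf by limma, where the summed levels overlapped (12.89 to 13.06 against 12.95 to 13.02). The part of cell composition in the *ccng1* and *ccng2* differences was not tested.

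The genes with the most similar profiles over the 15 arrays were found by the root mean square difference of log2 values after centring each probe set on its own mean. For *ccng1* these were *parp3*, which encodes a poly(ADP-ribose) polymerase of the response to DNA breaks (0.144), *mmp2*, which encodes a matrix metalloproteinase (0.168), *lemd1* (0.184) and *pik3r3a*, which encodes a regulatory subunit of phosphoinositide 3-kinase (0.266). The median over all genes was 0.719. The gene *parp3* differed between morphants and controls by 1.44 and 1.52, *mmp2* by 1.57 and 1.24, *lemd1* by 1.23 and 0.94, and *pik3r3a* by 1.85 and 1.04. Control means of *parp3*, 4.62 at 24 hpf and 4.71 at 48 hpf, lay below the median probe set level of 5.86.

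For *ccng2* the nearest were *apom*, which encodes an apolipoprotein (0.306), *gbx1*, a homeobox gene of the nervous system (0.314), *jag1a*, which encodes a Notch ligand (0.339), and *phgdh*, which encodes the enzyme that opens serine synthesis (0.339). The median over all genes was 0.671. The other *ccng2* probe set was nearer than any of them, at 0.208. Differences at 24 and 48 hpf were -0.90 and -0.75 for *apom*, -0.80 and -0.86 for *gbx1*, -0.61 and -0.70 for *jag1a*, and -0.91 and -0.64 for *phgdh*. These genes were picked for their likeness over the same arrays, so their differences carry no test here.

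**Figure D3:**
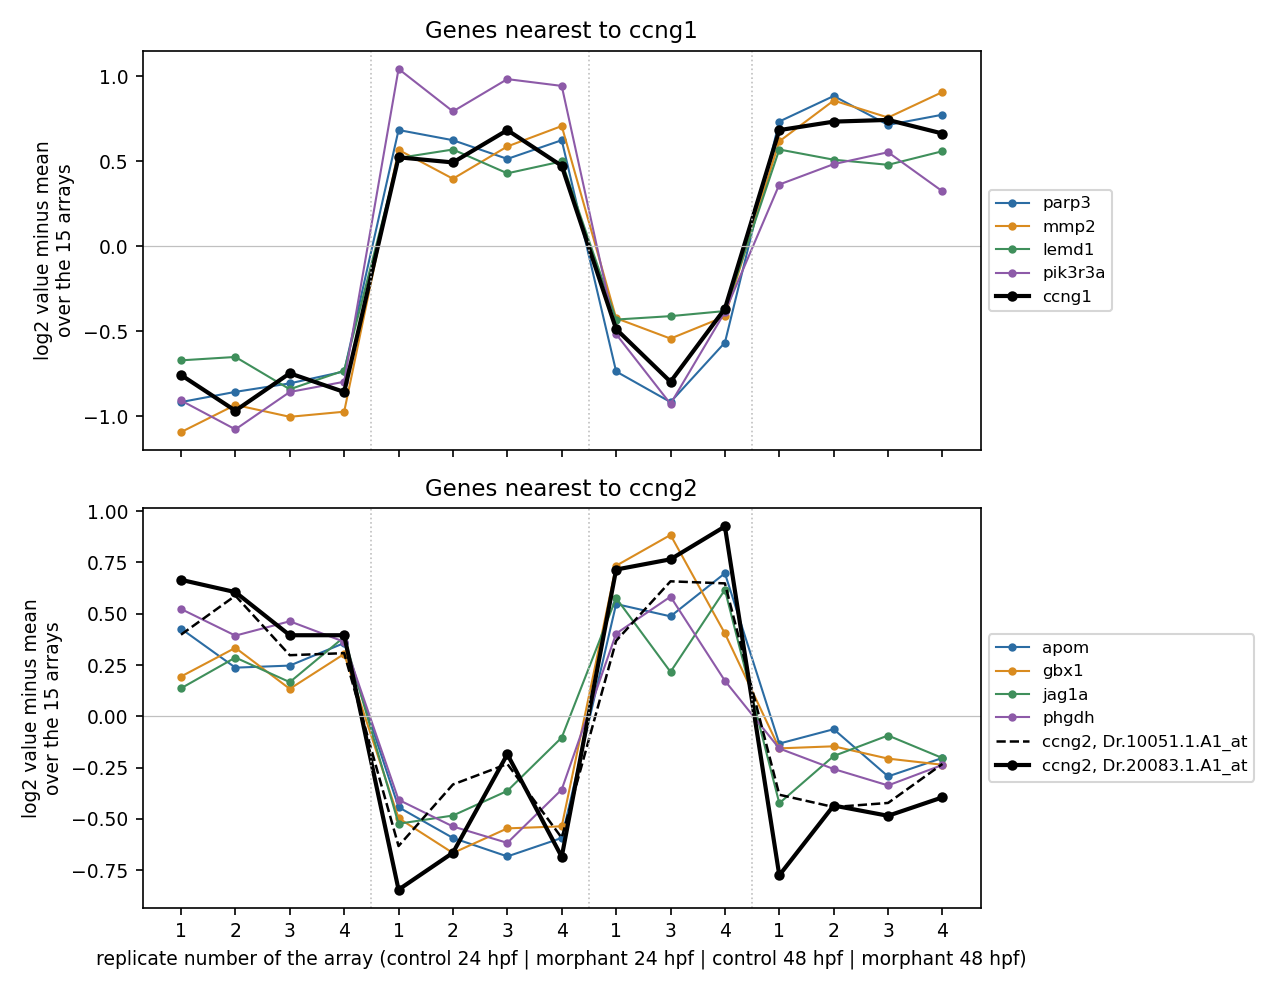
Profiles over the 15 arrays of *ccng1* (upper panel) and *ccng2* (lower panel), each with its 4 nearest genes. The y axis is the log2 value minus the probe set's mean over the arrays, the x axis gives the replicate numbers of the arrays in the 4 groups, and dotted lines part the groups. The dashed line is the other *ccng2* probe set, at a root mean square difference of 0.208 from the brighter one, and for *ccng1* the nearest gene is *parp3* at 0.144.

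The protein-coding genes that flank *ccng1* and *ccng2* in the RefSeq annotation of assembly GRCz12tu were looked up, a step chosen after the data were examined. The gene before *ccng2* is *ccni*, the atypical cyclin gene that fell with it, and the annotated span of the next gene, *taf1c*, overlaps that of *ccng2*. The gene *taf1c* encodes a subunit of the RNA polymerase I factor SL1 and moved in the opposite direction. Its values at 24 hpf were 4.20, 4.71, 4.46 and 4.56 in controls and 6.20, 6.17, 6.13 and 6.35 in morphants. At 48 hpf they were 4.44, 4.45 and 4.19 in controls and 5.56, 5.28, 5.98 and 5.67 in morphants. Every morphant lay above every control, which held for 10.0% of all probe sets at 24 hpf and 14.1% at 48 hpf. The gene *taf1c* rose by 1.73 at 24 hpf (adjusted p = 5.1e-08 from limma, standard error 0.13), and by 1.26 at 48 hpf (adjusted p = 6.1e-06, standard error 0.14). Controls, and morphants at 48 hpf other than replicate 3, lay below the median probe set level of 5.86, where a change can be understated.

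The values of *ccni* at 24 hpf were 9.57, 9.65, 9.63 and 9.63 in controls and 8.77, 8.83, 8.91 and 8.71 in morphants. At 48 hpf they were 10.69, 10.92 and 10.72 in controls and 10.06, 9.99, 9.91 and 9.87 in morphants. Morphants were below controls of their own time, which held for 10.9% of all probe sets at 24 hpf and 11.9% at 48 hpf. Yet morphants at 48 hpf were higher than controls at 24 hpf, and *ccni* rose by 1.16 in controls from 24 to 48 hpf (standard error 0.08, adjusted p = 1.3e-09). The flanking gene *ccni* thus shared the direction of *ccng2* in morphants but had a developmental difference of 1.16, against 0.29 for *ccng2*. The remaining flanking genes of *ccng2* up to the third on each side were not analysed here.

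Around *ccng1*, 4 of the 6 nearest protein-coding genes were measured. The gene next to it on one side, *tmx2a*, which encodes a thioredoxin-related transmembrane protein, rose by 0.23 at 24 hpf (adjusted p = 0.043 from limma) and 0.34 at 48 hpf (adjusted p = 0.0032). On the other side *nudcd2* had log2 differences of -0.12 and 0.07 and did not pass. The gene *gabrb2a*, which encodes a GABA receptor subunit, had -0.04 and 0.09. The gene *si:dkey-6i22.5* fell by 0.42 at 24 hpf (adjusted p = 0.0016) and was at -0.21 at 48 hpf (adjusted p = 0.071).

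**Figure D4:**
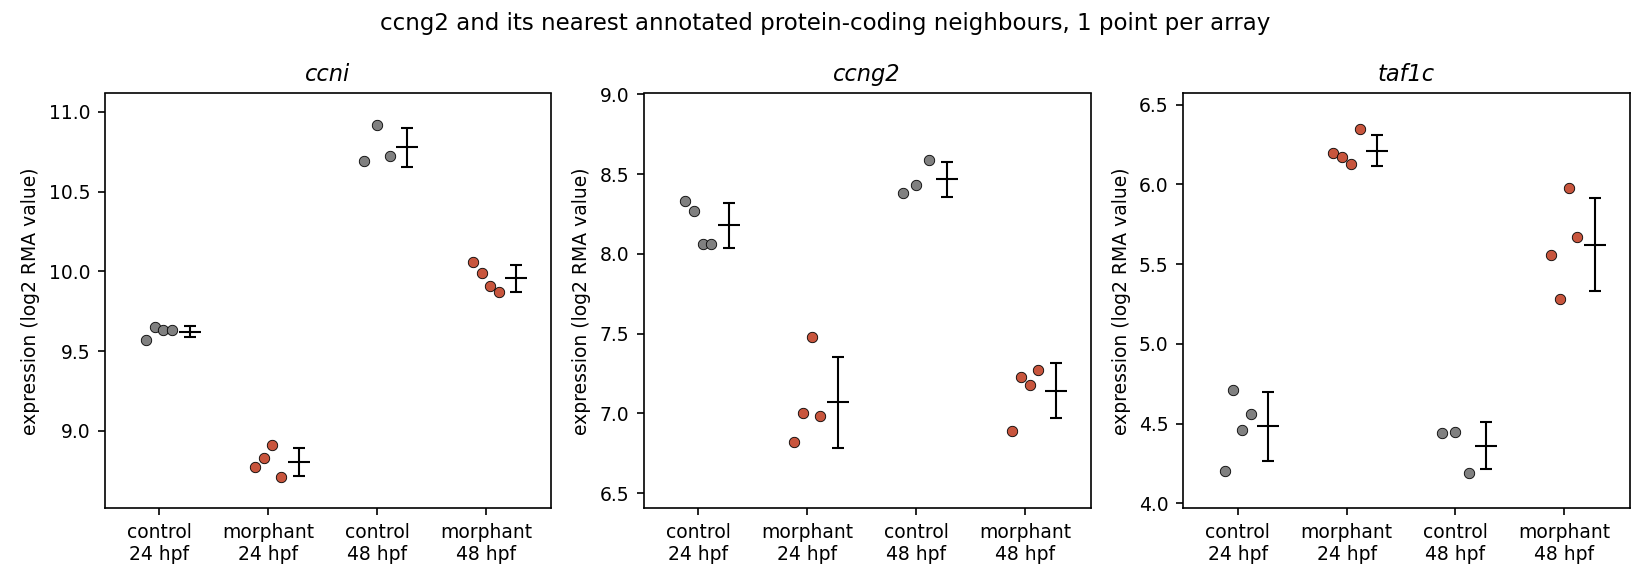
Expression of *ccng2* (middle, the brighter probe set) and of the annotated genes beside it, *ccni* and *taf1c*. The y axes are log2 RMA values over ranges of equal length; points are arrays, grey for controls and red for morphants, with mean and SD beside them. In morphants *ccni* and *ccng2* are lower (-0.81 and -1.11 at 24 hpf) and *taf1c* is higher (1.73 at 24 hpf).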

How the data were processed

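The 15 pools of 50 embryos were measured on GeneChip Zebrafish Genome Arrays (Affymetrix). The deposited log2 values were made by the authors with RMA (background correction, quantile normalization and 1 summary value for each probe set), with AffyQCReport for quality control, and tool versions are not given in the sources used here. The values were used as deposited. RMA sets the arrays to a common distribution, so changes are relative to the array as a whole. Of 15617 probe sets, 115 Affymetrix controls were left out. Gene symbols came from the platform annotation, updated by gene ID (10795 probe sets had 1 symbol, 135 had several and 4572 had none), and for genes with more than 1 probe set the brightest on average was used. The number of arrays limits the precision.

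A linear model with 4 group means was fitted to all arrays in limma 3.58.1 (R 4.3.3), with eBayes and Benjamini and Hochberg adjustment over 15502 probe sets. All p-values are two-sided and from limma, and a gene rose or fell at an adjusted p of at most 0.05. Shares of all probe sets that rose or fell use this threshold too, so they give no background for counts before adjustment. The pools are separate samples of a group, but whether they come from separate matings is not given. Tables and figures used Python 3.11.15, pandas 2.3.3 and matplotlib 3.10.9, and the fit was tested on simulated data.

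The members, the 6 gene lists and the tests were chosen with earlier results of these data known. Genes named are the members, up to 4 of each list per time point with the largest differences that passed, 13 fixed names (of which *cdkn1a* and *gak* were not analysed here and another is not reported here), the 4 nearest profiles of each member (leaving out genes named by a clone or locus number alone), and flanking genes. Alternatives were the replicate number as a block, separate fits, cyclic loess, leaving out dim probe sets, centring on ribosomal protein genes, array weights, trend and robust eBayes, other probe sets and leaving out each array.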

Additional observations from a re-analysis of the deposited data

Results flagged for a closer look

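In groups of 4 arrays, no *ccng1* or *ccng2* value stood apart from the others. What stood apart among the named genes is given here as values. In 132 sets of 4 arrays, 7 held an array whose gap to the others was large for the range of its group, and chance gives about 1 in 20. These were control replicate 4 at 24 hpf for *casp8* (4.83, the others 4.49 to 4.55), morphant replicate 2 at 24 hpf for *cables2a* (4.10, the others 4.29 to 4.30), morphant replicate 1 at 24 hpf for *ccne1* (5.47, the others 5.40 to 5.41) and morphant replicate 1 at 48 hpf for *esco2* (8.28, the others 8.61 to 8.68). The others were control replicate 1 at 24 hpf for *tob1a* (6.37, the others 5.88 to 5.95), morphant replicate 1 at 48 hpf for *sesn3* (9.36, the others 9.42) and morphant replicate 4 at 48 hpf for *mdm2* (9.33, the others 9.18 to 9.19).

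Many named genes were picked for large differences at 24 or 48 hpf, which favors a change between the times. Others, *pik3r3a* among them, were picked for their likeness to *ccng1* or *ccng2* over the same arrays. By limma's interaction test, 3.75% of all probe sets had a significantly higher and 2.52% a significantly lower effect at 48 hpf. The difference between morphants and controls changed from 24 to 48 hpf for 11 of 41 named genes by this test, with flanking genes left out. It became smaller for *casp8* (by -1.40, adjusted p = 1.5e-04), *phlda3* (-1.09, adjusted p = 1.5e-04), *gadd45aa* (-1.55, adjusted p = 2.1e-05), *foxo3b* (-1.42, adjusted p = 0.001) and *pik3r3a* (-0.81, in the count of 11 but given as a description). It became more negative for *ppp2r2bb* (-0.47, adjusted p = 0.041) and *cdkn1ca* (-0.73, adjusted p = 0.0013). It turned from a negative to a positive value for *mki67* (change 0.99, adjusted p = 0.014), *ccnb1* (0.44, adjusted p = 0.032), *esco2* (0.71, adjusted p = 0.0039) and *igfbp1a* (0.63, adjusted p = 0.039). The test is of the change, not of the sign. At 24 hpf the differences of *mki67*, *ccnb1* and *igfbp1a* did not pass (adjusted p = 0.15, 0.056 and 0.28 from limma). That of *ccnb1* did not pass at 48 hpf either (adjusted p = 0.13).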

How the results depend on the processing

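The differences of *ccng1* and *ccng2* between morphants and controls kept their direction under every alternative run, with a range of 1.33 to 1.41 for *ccng1* at 24 hpf and 1.13 to 1.37 at 48 hpf, and -1.25 to -0.84 and -1.38 to -0.93 for *ccng2*. The values nearest to 0 for *ccng2* were those of its other probe set (-0.84 and -0.93), and the mean of its probe sets gave -1.12 at 48 hpf. The comparison of the controls between 24 and 48 hpf was the result that depended on the processing. For *ccng1* (0.28) it did not pass with the replicate block (0.26, adjusted p = 0.055) or with the controls fitted alone (0.28, adjusted p = 0.078), and without single arrays it ranged from 0.19 to 0.41. For *ccng2* (0.29) it passed with the controls alone (0.29, adjusted p = 0.043), cyclic loess (0.38, adjusted p = 0.031) and centring on 67 ribosomal protein genes (0.45, adjusted p = 0.011), and without single arrays it ranged from 0.23 to 0.34, passing without morphant replicate 3 at 24 hpf (adjusted p = 0.03). The cause of these changes was not tested. Over all alternatives the adjusted p ran from 6.1e-04 to 0.12 for *ccng1* and from 0.011 to 0.25 for *ccng2*. With this centring the median over all probe sets moved from 0.02 to 0.18 in this comparison and from 0.01 to 0.13 between morphants and controls at 48 hpf, and gave 0.41 for *ccng1* and 0.33 for *ccng2* between the morphant groups (0.16 and 0.08 as deposited). The replicate number was not taken to pair the pools. Same-numbered controls and morphants deviated together weakly at 24 hpf (correlations 0.0205 to 0.198, against -0.247 to 0.114 for different numbers). At 48 hpf they deviated in opposite directions (-0.451 to -0.0759, against -0.272 to 0.424 for different numbers). Whether the numbers pair the pools at 24 hpf is thus not settled. The replicate block changed no other call of *ccng1* or *ccng2*. Array weights stopped before convergence and gave control replicate 1 at 48 hpf a weight of 0.00306, so this alternative is of little use. With a fold of at least 2, 0 of the other cyclin genes differed between morphants and controls, and 9 and 6 of the p53 target genes rose at 24 and 48 hpf. Across alternatives without that fold, the other cyclin genes lowered at 24 hpf numbered 4 to 6 and at 48 hpf 1 to 4, those raised at 48 hpf 2 to 6, the p53 target genes raised 10 to 16 and 8 to 15, the FoxO genes raised 3 to 5 and 2 to 6, and the genes of dividing cells lowered 10 to 14 and 1 to 5. Leaving out dim probe sets gave the p53 counts of 10 and 8 and the FoxO count of 3. Dim list genes were not tested in that fit. Array weights gave the p53 count of 16, the 14 for genes of dividing cells, and both values of 1.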
